A study of Mus musculus with 16 samples.

Results

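The canonical Wnt pathway was examined through 10 of its genes, *Wnt3*, *Sfrp1*, *Fzd1*, *Fzd3*, *Lrp6*, *Axin2*, *Ctnnb1*, *Tcf7l1*, *Tcf7l2* and *Lef1*, which were taken by gene symbol from a table of 30386 genes. All 10 were found in the table and passed the filter on low values, more than 1 CPM (a gene's reads scaled to the total of the sample) in at least 4 of the 16 samples, which left 12533 genes for testing. The samples were cultures of neural stem/progenitor cells (NSPCs) derived from the subventricular zone, a niche of neural stem cells in the adult mouse brain, of C57BL/6 J/Babr mice aged 3 months. *Dbx2*-NSPCs (n = 8) carried a transgene for the homeobox transcription factor Dbx2 and *GFP*-NSPCs (n = 8) one for green fluorescent protein. In both groups the transgene was on a plasmid for constitutive expression, the transgenic cells were bulk populations selected with puromycin, and RNA was taken from non-adherent cultures grown with EGF and FGF2. Per the study, 2 pairs of lines from independent derivations were used, with 4 experiments for each pair, while the labels give the transgene and a number from 1 to 8 but not the line. The comparison of *Dbx2*-NSPCs with *GFP*-NSPCs asks how constitutive *Dbx2* affects the transcriptome of proliferating NSPCs, and it was made over all samples and within the samples numbered 1 to 4 and those numbered 5 to 8.

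Canonical Wnt signalling works by protecting β-catenin from degradation. Without a ligand, a destruction complex built on Axin and Apc marks β-catenin for breakdown, and TCF/LEF factors on DNA hold their targets silent. When a secreted Wnt protein binds a Frizzled receptor and the co-receptor Lrp5 or Lrp6, the complex is disabled, and β-catenin accumulates and joins TCF/LEF factors in the nucleus to activate transcription. In the adult brain the pathway is known for its part in the self-renewal of neural stem cells and in the formation of new neurons.

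TCF/LEF factors recognise a short DNA motif, which was looked for near the starts of these genes because *Tcf7l2* and *Wnt3* were among the members that differed between groups and *Axin2* is a widely used target of the pathway. RefSeq windows of 300 bases (250 before and 50 after a transcript start, GRCm38.p6) were matched for 7 of the 10 genes, with 12 windows in all. *Fzd3*, *Sfrp1* and *Lrp6* had no matched entry. The sequences before the most upstream start of each of these genes follow, all on the plus strand and outside the annotated gene, at chr19:55741560-55741809 for *Tcf7l2*, chr11:108920099-108920348 for *Axin2* and chr11:103773925-103774149 for *Wnt3*.
Tcf7l2: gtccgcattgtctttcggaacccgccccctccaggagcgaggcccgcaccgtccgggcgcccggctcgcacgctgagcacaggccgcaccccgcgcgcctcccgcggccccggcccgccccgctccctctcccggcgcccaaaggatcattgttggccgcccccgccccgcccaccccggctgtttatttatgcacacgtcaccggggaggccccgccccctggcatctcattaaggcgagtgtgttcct
Axin2: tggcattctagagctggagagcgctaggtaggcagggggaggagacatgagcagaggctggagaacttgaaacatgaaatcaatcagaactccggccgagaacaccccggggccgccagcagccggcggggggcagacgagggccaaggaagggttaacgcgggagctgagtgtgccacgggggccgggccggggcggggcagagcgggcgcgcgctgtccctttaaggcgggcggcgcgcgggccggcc
Wnt3: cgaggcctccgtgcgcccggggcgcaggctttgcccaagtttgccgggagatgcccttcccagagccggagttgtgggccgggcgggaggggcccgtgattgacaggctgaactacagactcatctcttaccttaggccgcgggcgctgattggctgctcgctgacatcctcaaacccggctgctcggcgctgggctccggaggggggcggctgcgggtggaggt

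These stretches were rich in G and C, at 72.8% of the bases for *Tcf7l2*, 69.2% for *Axin2* and 68.9% for *Wnt3*. The letters CTTTG followed by 2 bases that were each A or T, searched on both strands, were not in any of them. Over the 12 member windows the letters were found in 3, or 25.0%, beside 16.9% of all 32851 windows in the table. The matching sites lay at chr19:55895296-55895324 in an intron of *Tcf7l2*, ahead of an internal transcript start, at chr3:131156136-131156164 in an intron of *Lef1*, also ahead of an internal start, and at chr11:103774182-103774210, which GENCODE M21 places in an intron of *Wnt3*. In the *Wnt3* window the letters began at base 19 after the RefSeq transcript start. The sites are shown on the plus strand, with the matching letters in capitals.
Tcf7l2 internal site: aaaatatcaggCTTTGTTcttttgattga
Lef1 internal site: caacctcagaaTACAAAGtaggattgcat
Wnt3 site: cctcaagtggaCTTTGTTccaactattgg

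The *Lef1* match reads on the opposite strand. No binding was measured in these samples, and a match is a description of the letters only.

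Libraries were made with a kit that reads the 3' ends of polyadenylated transcripts, and the deposited CPM could be turned back into whole reads, with totals of 1803928 to 3293285 per sample. The limit of counting was taken as 3 reads, or 0.911 to 1.66 CPM, and this limit and the intervals on read ratios below cover counting error only. *Dbx2* itself was at 89.3 to 171 CPM in *GFP*-NSPCs 1 to 4 against 136 to 232 CPM in *Dbx2*-NSPCs 1 to 4, which overlap, and at 30.7 to 39.5 and 114 to 155 CPM in numbers 5 to 8, which do not. Reads of the transgene and the endogenous gene are not told apart. All 7 NSPC markers, such as *Nes*, *Sox2* and *Vim*, exceeded the limit, and their sum was 4025 to 5602 CPM per sample. Microglial and endothelial or mural markers summed to at most 1.96 and 2.73 CPM, and those of oligodendrocytes, ependymal cells and neurons or neuroblasts to at most 7.89, 34.7 and 40.2 CPM. Astrocyte markers, several of which NSPCs also express, summed to 1641 to 2058 CPM in *GFP*-NSPCs 1 to 4, 1050 to 1383 in *Dbx2*-NSPCs 1 to 4, 689 to 874 in *GFP*-NSPCs 5 to 8 and 961 to 1105 in *Dbx2*-NSPCs 5 to 8.

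Over all samples, none of the 10 genes passed the main test between *Dbx2*-NSPCs and *GFP*-NSPCs. *Sfrp1* passed once the sample numbers or their sets were in the fit. With limma on log2(CPM + 0.5) and Benjamini-Hochberg adjustment over all tested genes, 0 of 10 passed an adjusted p of 0.05, beside 15.8% of all tested genes, and edgeR and DESeq2 on the recovered reads also called 0. With a block for the sample numbers, and with the set of numbers as a covariate, 1 of 10 passed, *Sfrp1* in both (limma adjusted p = 0.0386 and 0.00972). In these fits 2723 and 3034 of the 12533 tested genes passed, against 1982 in the main test. Within the sets the numbers were not found to be pairs. Without adjustment 1 gene, *Wnt3*, was under 0.05, a level at which the share of all tested genes was not counted. The median log2 change of the 10 genes was -0.04, beside -0.02 over all tested genes. None of the 10 was without overlap between the groups, which held for 3.41% of tested genes. The antagonist *Sfrp1* was higher and the ligand *Wnt3* lower in *Dbx2*-NSPCs of numbers 1 to 4, and the nuclear factor *Tcf7l2* was lower in those of numbers 5 to 8. These are 2 of 10 genes in the former, where 20.5% of tested genes were called (10.6% higher and 9.85% lower), and 1 of 10 in the latter, where 20.7% were called (10.5% higher and 10.2% lower), so the members were called no more often than the tested genes at large. The median log2 changes of the 10 genes were -0.05 and 0.01 in the sets, beside -0.04 and -0.01 over all tested genes. The effect itself differed between the sets for *Sfrp1* and *Tcf7l2*, or 2 of 10 genes, beside 9.44% of tested genes.

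**Figure D1:**
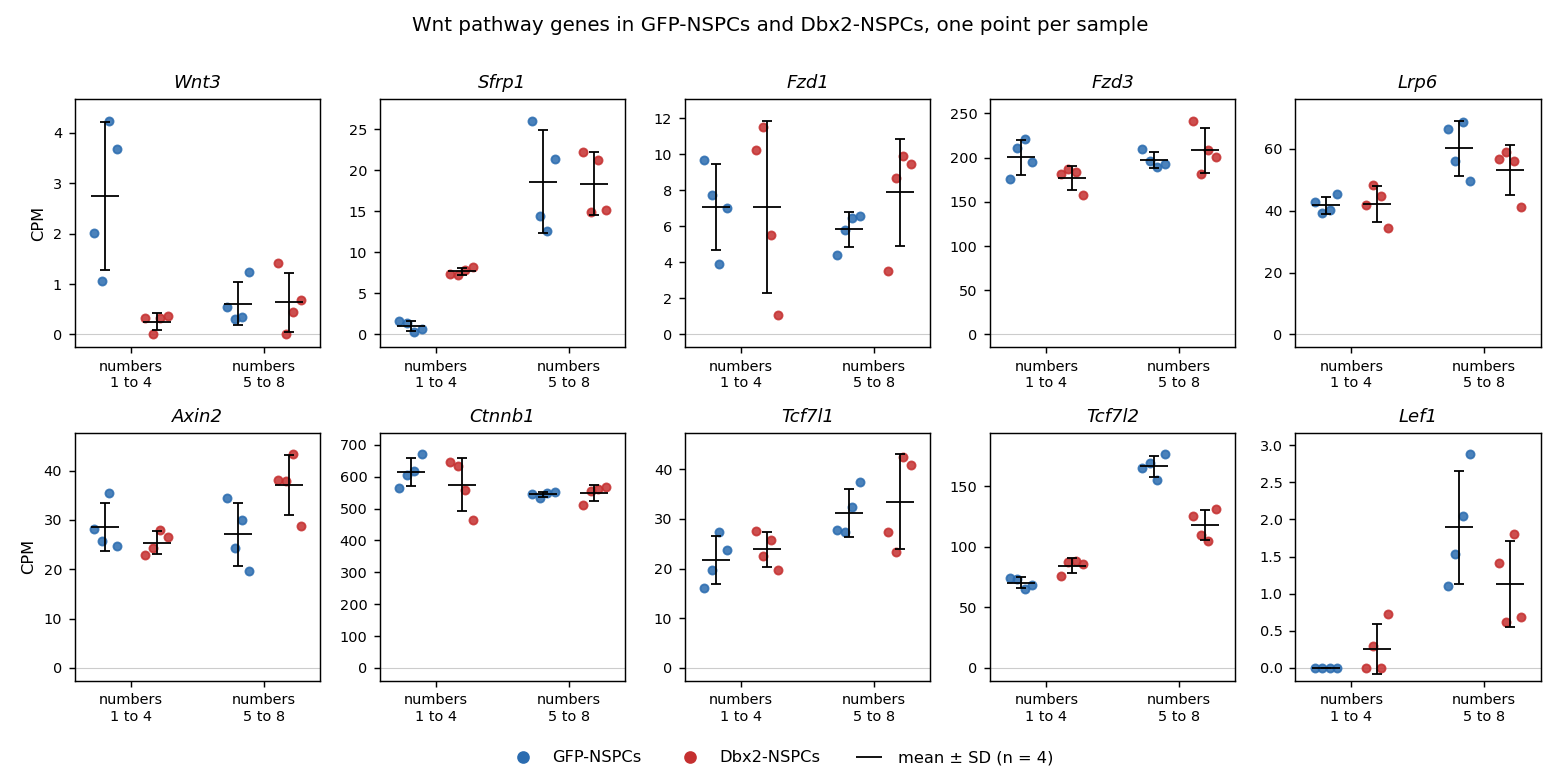
CPM of the 10 Wnt pathway genes, with 1 point per sample, *GFP*-NSPCs in blue and *Dbx2*-NSPCs in red, and black bars for the mean ± SD of each group of 4. *Sfrp1* was at 0.33 to 1.61 CPM in *GFP*-NSPCs 1 to 4 and at 7.28 CPM or more in every other group, and *Tcf7l2* separated the transgene groups in opposite directions in the sets.

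Among ligands, *Wnt3* encodes a Wnt protein that activates the canonical pathway. It lies on chromosome 11 from 103774150 to 103817957 (ENSMUSG00000000125, plus strand, GRCm38). In *GFP*-NSPCs numbered 1 to 4 it was at 2.01, 1.06, 4.24 and 3.67 CPM, and in *Dbx2*-NSPCs of the same numbers at 0.32, 0, 0.33 and 0.36 CPM. Every *GFP* sample of this set was thus higher than every *Dbx2* sample, although the latter held only 3 reads in all against 32. Scaled to depth the ratio was 11.5-fold lower in *Dbx2*-NSPCs (95% interval 3.59 to 58.6), and the log2 change was -2.01 (standard error 0.48, limma adjusted p = 0.0037). Outside *GFP*-NSPCs 1 to 4, only *GFP*-NSPC replicate 8 and *Dbx2*-NSPC replicate 5 exceeded 1 CPM. *Wnt3* thus passed the filter only through the group where it was high, and its p-values are no independent support. The samples numbered 5 to 8 had *Wnt3* at 0.55, 0.31, 0.34 and 1.23 CPM in *GFP*-NSPCs and 1.41, 0, 0.45 and 0.68 CPM in *Dbx2*-NSPCs. The groups overlapped there, with 6 against 7 reads, so that no difference was detectable at this depth (log2 change -0.05, limma adjusted p = 0.959). The difference between the set effects was 1.96 on the log2 scale and missed the threshold (limma adjusted p = 0.0746). It passed under 2 of 26 alternatives, without *GFP*-NSPC replicate 2 or *Dbx2*-NSPC replicate 6 (limma adjusted p = 0.0411 and 0.0333). Over all samples the log2 change was -1.03 (standard error 0.41, limma adjusted p = 0.101).

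*Sfrp1* encodes a secreted protein that binds Wnt ligands and antagonises them. It lies on chromosome 8 from 23411502 to 23449632 (ENSMUSG00000031548, plus strand). Numbers 1 to 4 had it at 1.61, 1.41, 0.33 and 0.67 CPM in *GFP*-NSPCs and at 7.38, 7.28, 7.82 and 8.25 CPM in *Dbx2*-NSPCs. No values overlapped, which held for *Sfrp1*, *Wnt3* and *Tcf7l2*, or 3 of the 10 genes, in this set, beside 19.6% of tested genes. The reads were 11 against 94, a ratio of 7.93-fold (95% interval 4.24 to 16.4), with a log2 change of 2.54 (standard error 0.30, limma adjusted p = 1.01e-06). The set of numbers 5 to 8 had *Sfrp1* at 26.04, 14.42, 12.64 and 21.38 CPM in *GFP*-NSPCs and at 22.17, 14.91, 21.22 and 15.19 CPM in *Dbx2*-NSPCs. These groups overlapped throughout and the log2 change was 0.02 (95% interval -0.64 to 0.67, limma adjusted p = 0.981). The set effects differed by -2.52 (standard error 0.43, limma adjusted p = 0.000179). Over all samples the log2 change was 1.28 (standard error 0.66, limma adjusted p = 0.21), while a block for the sample numbers made the gene pass (limma adjusted p = 0.0386).

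The low group was thus *GFP*-NSPCs 1 to 4. Within *GFP*-NSPCs, *Sfrp1* was higher by 3.71 on the log2 scale in numbers 5 to 8 than in numbers 1 to 4 (limma adjusted p = 8.58e-10), and within *Dbx2*-NSPCs by 1.18 (limma adjusted p = 0.00697). The astrocyte marker sums given above did not overlap between the sets within *GFP*-NSPCs and overlapped within *Dbx2*-NSPCs, and their part in the *Sfrp1* and *Tcf7l2* values was not tested. In bulk RNA, fewer cells of a type and less RNA per cell cannot be told apart.

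Among receptors, *Fzd1* and *Fzd3* encode Frizzled receptors and *Lrp6* the co-receptor that passes the signal to the destruction complex. *Fzd1*, on chromosome 5 from 4753839 to 4758035 (ENSMUSG00000044674), had its lowest, median and highest values at 3.91, 6.54 and 9.67 CPM in *GFP*-NSPCs and at 1.08, 9.08 and 11.5 CPM in *Dbx2*-NSPCs. The lowest *Dbx2* sample, number 4, rested on 3 reads, and the interval of the all-sample log2 change was wide (-0.73 to 0.77). *Fzd3*, on chromosome 14 from 65192449 to 65262463 (ENSMUSG00000007989), was at 175, 196 and 221 CPM in *GFP*-NSPCs and at 158, 185 and 242 CPM in *Dbx2*-NSPCs. Its groups overlapped over nearly the whole range, with a log2 change of -0.05 (95% interval -0.22 to 0.12, limma adjusted p = 0.733). *Lrp6*, on chromosome 6 from 134446476 to 134566965 (ENSMUSG00000030201), was at 39.2, 47.5 and 68.6 CPM in *GFP*-NSPCs and at 34.5, 46.4 and 59.0 CPM in *Dbx2*-NSPCs, a log2 change of -0.09 (95% interval -0.39 to 0.22, limma adjusted p = 0.735). None of these receptor genes passed the test in either set. Within *GFP*-NSPCs *Lrp6* was 0.51 higher on the log2 scale in numbers 5 to 8 than in numbers 1 to 4 (limma adjusted p = 0.00828), without overlap between 39.15 to 45.32 CPM and 49.76 to 68.64 CPM.

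In the destruction complex, *Axin2* encodes a scaffold that is itself induced by the pathway and limits it. It lies on chromosome 11 from 108920349 to 108950783 (ENSMUSG00000000142, plus strand) and overlaps the antisense gene *Gm11670*. Numbers 1 to 4 had it at 28.2, 25.75, 35.52 and 24.66 CPM in *GFP*-NSPCs and at 22.8, 24.28, 28 and 26.55 CPM in *Dbx2*-NSPCs, which overlapped. Numbers 5 to 8 had it at 34.36, 24.23, 30.05 and 19.74 CPM in *GFP*-NSPCs and at 38.01, 37.9, 43.34 and 28.7 CPM in *Dbx2*-NSPCs. In the latter set 3 of the 4 *Dbx2* samples were above all *GFP* samples, and the log2 change of 0.46 (standard error 0.18) missed the threshold (limma adjusted p = 0.0706). It passed under 4 of 28 alternatives, among them without *GFP*-NSPC replicate 5 or *Dbx2*-NSPC replicate 8 (limma adjusted p = 0.0295 and 0.0312). The difference between the set effects was 0.61 (limma adjusted p = 0.141).

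*Ctnnb1* encodes β-catenin, whose amount is mainly set by the breakdown of the protein, which RNA does not show. It lies on chromosome 9 from 120929216 to 120960507 (ENSMUSG00000006932, plus strand) and overlaps *Ulk4* on the other strand. It was at 533, 558 and 671 CPM (lowest, median and highest) in *GFP*-NSPCs and at 463, 559 and 646 CPM in *Dbx2*-NSPCs. The medians were within 1 CPM of each other, and the log2 change of -0.05 had an interval of -0.21 to 0.11 (limma adjusted p = 0.722). The 20 nearest tested genes on the chromosome were higher in *Dbx2*-NSPCs by 0.41 on the log2 scale on average, and *Ctnnb1* less this mean was at -0.46 (limma adjusted p = 0.00468).

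Among the nuclear factors, *Tcf7l2* encodes a TCF factor that binds β-catenin and either activates or represses targets. It lies on chromosome 19 from 55741820 to 55933654 (ENSMUSG00000024985, plus strand), and the sequence ahead of its start is shown above. In numbers 1 to 4 it was at 74.53, 73.71, 65.17 and 68.31 CPM in *GFP*-NSPCs and at 75.77, 87.71, 88.57 and 85.75 CPM in *Dbx2*-NSPCs. All *Dbx2* samples were higher, the closest by 1.24 CPM, and the log2 change of 0.26 (standard error 0.10) missed the threshold (limma adjusted p = 0.0711). This change passed under 4 of 28 alternatives. Among them were the fit without *Dbx2*-NSPC replicate 1 (limma adjusted p = 0.0414), median-of-ratios scaling (limma adjusted p = 0.0483) and DESeq2 (adjusted p = 0.0476). In numbers 5 to 8 *Tcf7l2* was at 165.13, 168.7, 155.39 and 176.42 CPM in *GFP*-NSPCs and at 124.95, 109.65, 104.74 and 131 CPM in *Dbx2*-NSPCs. Here all *Dbx2* samples were lower, which made *Tcf7l2* the 1 gene of the 10 without overlap in this set, beside 24.8% of tested genes. The means were 166 ± 8.73 and 118 ± 12.4 CPM (SD, n = 4 each), 1.42-fold lower in *Dbx2*-NSPCs, with a log2 change of -0.50 (standard error 0.10, limma adjusted p = 0.000604). The set effects differed by -0.76 (standard error 0.14, limma adjusted p = 0.000572), and leaving out each sample in turn kept this difference between -0.82 and -0.71. Over all samples the opposite directions left a log2 change of -0.12 (95% interval -0.60 to 0.36, limma adjusted p = 0.765).

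*Tcf7l2* also differed between the sets within each transgene. It was higher by 1.24 on the log2 scale in *GFP*-NSPCs 5 to 8 than in *GFP*-NSPCs 1 to 4 (limma adjusted p = 9.25e-10) and by 0.47 in *Dbx2*-NSPCs (limma adjusted p = 0.00156). The 20 nearest tested genes changed by -0.23 and -0.02 on average in numbers 1 to 4 and 5 to 8, and without this mean *Tcf7l2* was called in numbers 1 to 4 as well (0.49, limma adjusted p = 0.00457). In numbers 5 to 8, where *Tcf7l2* was lower in *Dbx2*-NSPCs, the groups were also apart in the summed NSPC markers (5017 to 5225 CPM with *GFP* against 4025 to 4538 with *Dbx2*), in the summed markers of neurons or neuroblasts (13.9 to 24.6 against 27.5 to 40.2 CPM), of astrocytes (689 to 874 against 961 to 1105 CPM) and of ependymal cells (9.56 to 18.1 against 19.4 to 27.3 CPM), and in the share of mitochondrial reads (3.30% to 4.81% against 5.93% to 6.94%). The part of these in the *Tcf7l2* value was not tested.

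*Tcf7l1* encodes a TCF factor known mainly as a repressor of Wnt targets in stem cells. On chromosome 6 from 72626378 to 72789254 (ENSMUSG00000055799), it was at 16.1, 27.3 and 37.4 CPM (lowest, median and highest) in *GFP*-NSPCs and at 19.7, 26.6 and 42.4 CPM in *Dbx2*-NSPCs. These ranges overlapped and the log2 change was 0.11 (95% interval -0.28 to 0.50, limma adjusted p = 0.743). *Lef1*, on chromosome 3 from 131110471 to 131224356 (ENSMUSG00000027985), encodes a TCF/LEF factor known mainly as an activator. It was at 0 CPM in all *GFP*-NSPCs 1 to 4 and at 0, 0.3, 0 and 0.72 CPM in *Dbx2*-NSPCs 1 to 4, all under the limit of 3 reads. Numbers 5 to 8 had it at 1.11, 1.53, 2.05 and 2.88 CPM in *GFP*-NSPCs and at 1.41, 0.62, 1.81 and 0.68 CPM in *Dbx2*-NSPCs, with 20 against 12 reads (ratio 1.80-fold lower in *Dbx2*-NSPCs, 95% interval 0.836 to 4.03). *Lef1* was therefore measured near the limit and its transgene effect was not resolved in either set.

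**Figure D2:**
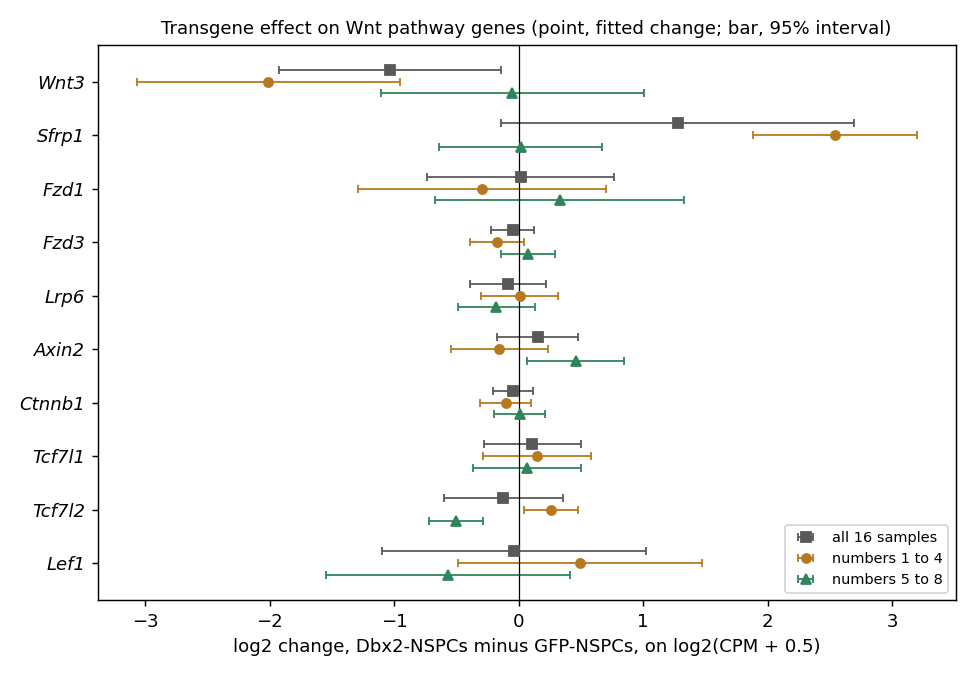
Fitted log2 change (*Dbx2*-NSPCs minus *GFP*-NSPCs) on the scale of log2(CPM + 0.5) for the 10 genes, with 95% intervals of each gene's own comparison, over all 16 samples (squares), numbers 1 to 4 (circles) and numbers 5 to 8 (triangles). The intervals of *Sfrp1* and *Tcf7l2* in numbers 1 to 4 and 5 to 8 do not overlap, and the intervals of *Wnt3* are broad.

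The genes were also compared between the sets within each transgene. Within *GFP*-NSPCs, 6 of the 10 genes (*Sfrp1*, *Tcf7l2*, *Lef1*, *Lrp6*, *Wnt3* and *Tcf7l1*) differed between numbers 5 to 8 and 1 to 4, beside 28.6% of tested genes, and within *Dbx2*-NSPCs 3 (*Sfrp1*, *Tcf7l2* and *Axin2*), beside 17.5%. *Wnt3* was lower in numbers 5 to 8 and the other genes called were higher. *Wnt3* passed the filter only through *GFP*-NSPCs 1 to 4 and *Lef1* only through *GFP*-NSPCs 5 to 8, where each was highest. The sets did not overlap for 5 of the 10 genes within *GFP*-NSPCs (*Sfrp1*, *Tcf7l2*, *Lef1*, *Lrp6* and *Ctnnb1*), beside 28.9% of tested genes, and for 3 within *Dbx2*-NSPCs (*Sfrp1*, *Tcf7l2* and *Axin2*), beside 19.8%. Whether the sets stand for the derivations of the lines is not given in the labels, and what separates them was not tested.

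The other genes of the pathway were described with a list of 93 genes by role, the 10 genes included, of which 66 were tested and 13 were at 0 in every sample. Over all samples 3 were higher in *Dbx2*-NSPCs (*Wnt5a*, *Wnt5b* and *Wif1*), 9 were lower (*Wnt4*, *Wnt7a*, *Rspo1*, *Sfrp2*, *Sfrp4*, *Lgr4*, *Lgr5*, *Frat1* and *Frat2*) and 54 did not pass, and the median log2 change was -0.09. For comparison, 8.03% of all tested genes were higher and 7.78% lower. *Rspo1*, *Sfrp2* and *Sfrp4* were near the limit of counting, with 32, 34 and 37 reads in all *GFP*-NSPCs against 12, 9 and 12 in *Dbx2*-NSPCs. They passed the filter mainly through *GFP* samples, where they were higher. The Lgr genes, *Lgr4* and *Lgr5* among them, were filed under receptor turnover and not under receptors. None of the 11 Frizzled and Lrp receptor genes, 12 destruction complex genes or 15 nuclear factors tested was among the 12 called over all samples. Within the sets these roles held calls as well. In numbers 1 to 4, where 20.5% of tested genes were called, 9 of the 66 were higher and 12 lower, among them *Fzd8*, *Fzd9*, *Apc2*, *Pygo2*, *Ctnnbip1* and *Tle4*, and in numbers 5 to 8, beside 20.7%, 3 were higher and 14 lower, among them *Fzd4*, *Apc*, *Pygo1*, *Tcf7l2*, *Ctnnbip1* and *Tle4*. Differences between the roles were not tested. The all-sample count of 12 rose to 21 with the set as covariate (6 higher, 15 lower) and was 15 with the replicate block. Calls over all 12533 tested genes rose as well, from 1982 to 3034 and 2723. The count of the list fell to 4 with only genes averaging 10 CPM or more, where 1513 of all 8651 genes were called. It fell to 6 without *GFP*-NSPC replicate 6 and to 7 without *Dbx2*-NSPC replicate 3, 6 or 7. Without these samples 1736, 1742, 1710 and 1783 of 12533 genes were called.

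*Lgr5*, a receptor for R-spondins and a marker of Wnt-responsive stem cells in several tissues, was lower in every *Dbx2* sample. It was at 22.2 ± 3.65 CPM in *GFP*-NSPCs 1 to 4 against 5.63 ± 1.56 CPM in *Dbx2*-NSPCs 1 to 4, and at 12.6 ± 2.1 and 2.38 ± 1.01 CPM in numbers 5 to 8 (SD, n = 4 each). The log2 change over all samples was -2.07 (standard error 0.28, limma adjusted p = 4.81e-05), and its 20 nearest tested genes were also lower, by -0.55 on average. *Frat2*, whose product binds Gsk3 and favours β-catenin, fell from 16.6 ± 3.06 CPM with *GFP* to 9.03 ± 2.54 CPM with *Dbx2* (SD, n = 8 each), a log2 change of -0.86 (standard error 0.17, limma adjusted p = 0.00131). Both genes passed in each set, in the same direction.

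*Wif1*, a secreted inhibitor that binds Wnt proteins, also passed in each set. It was below the level that the rule for naming asked for and was chosen after its values were seen. *GFP*-NSPCs held 4 reads of it in all and *Dbx2*-NSPCs 129, a ratio of 29.9-fold (95% interval 11.4 to 112), with 0 to 0.55 CPM against 3.34 to 13.1 CPM (limma adjusted p = 1.2e-06). The gene passed the filter on low values only through the *Dbx2* samples, where it was high, so its p-values are no independent support.

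The ligands moved in both directions. *Wnt4* was lower, at 3.42 ± 2.72 CPM with *Dbx2* against 13.0 ± 6.61 CPM with *GFP* (SD, n = 8 each), a log2 change of -2.11 (standard error 0.47, limma adjusted p = 0.00454). It passed in numbers 5 to 8 (-3.2, limma adjusted p = 2.6e-06, 131 reads with *GFP* against 12). In numbers 1 to 4 it did not (-0.97, limma adjusted p = 0.112). *Wnt5a*, a ligand known mostly for non-canonical signalling, was higher, at 190 ± 18.7 against 133 ± 43.1 CPM (log2 change 0.57, standard error 0.16, limma adjusted p = 0.0221). *Wnt5b* was higher at 10.4 ± 5.06 against 4.90 ± 2.70 CPM (limma adjusted p = 0.0447), and *Wnt7a* lower at 21.6 ± 4.36 against 32.0 ± 8.96 CPM (limma adjusted p = 0.0445). In numbers 1 to 4 *Wnt7a* was at 24.7 ± 4.66 CPM with *GFP* and 23.8 ± 5.2 CPM with *Dbx2* (log2 change -0.06, limma adjusted p = 0.857), and in numbers 5 to 8 at 39.3 ± 4.86 and 19.5 ± 2.28 CPM (-0.99, limma adjusted p = 0.000258; SD, n = 4 each). *Wnt5a* changed by 0.92 in numbers 1 to 4 (limma adjusted p = 1e-05) and by 0.22 in numbers 5 to 8, where it did not pass (limma adjusted p = 0.245). The all-sample calls of *Wnt5b* and *Wnt7a* were lost under 13 of 27 and 14 of 28 alternatives.

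The effect differed between the sets for 13 of the 66 tested genes, 3 with a higher and 10 with a lower value in numbers 5 to 8, beside 4.4% and 5.04% of tested genes. *Wls*, which carries Wnt proteins to the cell surface, was lowest in *GFP*-NSPCs 1 to 4, as was *Sfrp1*. In numbers 1 to 4 it was at 0.4 to 3.67 CPM in *GFP*-NSPCs and 16.15 to 51.6 CPM in *Dbx2*-NSPCs (log2 change 4.0, limma adjusted p = 5.37e-09), and in numbers 5 to 8 at 67.44 to 78.69 and 79 to 86.04 CPM (0.12, limma adjusted p = 0.851). The difference was -3.87 (standard error 0.48, limma adjusted p = 3.08e-06). *Wnt7b* differed the other way (difference 1.73, standard error 0.31, limma adjusted p = 0.000363). In numbers 1 to 4 it was at 75.31 to 124.08 CPM in *GFP*-NSPCs and 71.64 to 125.22 CPM in *Dbx2*-NSPCs (log2 change 0.08, limma adjusted p = 0.834). In numbers 5 to 8 it was at 11.51 to 28.26 and 62.12 to 85.18 CPM (1.81, limma adjusted p = 8.93e-07). Over all samples it did not pass (limma adjusted p = 0.13).

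3 genes were called in both sets in opposite directions, as were 1.76% of all tested genes. *Tle4*, a Groucho corepressor that binds TCF factors, was higher in numbers 1 to 4 (0.80) and lower in numbers 5 to 8 (-1.20), a difference of -2.0 (standard error 0.15, limma adjusted p = 1.6e-09). *Ctnnbip1*, an inhibitor of the contact between β-catenin and TCF factors, changed by 0.81 and -1.14 and differed by -1.95 (limma adjusted p = 1.25e-07), and *Dvl1*, which relays the signal from Frizzled, by 0.98 and -1.0 with a difference of -1.98 (limma adjusted p = 2.83e-06). The neighbours of *Ctnnbip1* and *Dvl1* on chromosome 4 moved with them, by 0.90 and -0.65 and by 0.68 and -0.72 on average in the sets. Less this mean neither difference passed (limma adjusted p = 0.164 and 0.173), and the same held for *Wnt4* on chromosome 4 (0.173), *Wnt5a* (0.111) and *Wnt7a* (0.269). The neighbours of *Wnt5a* changed by only 0.13 and 0.05 in the sets, and its difference went from -0.70 to -0.62. *Tle4*, *Wls*, *Wnt7b*, *Sfrp1* and *Tcf7l2* stayed past the threshold.

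**Figure D3:**
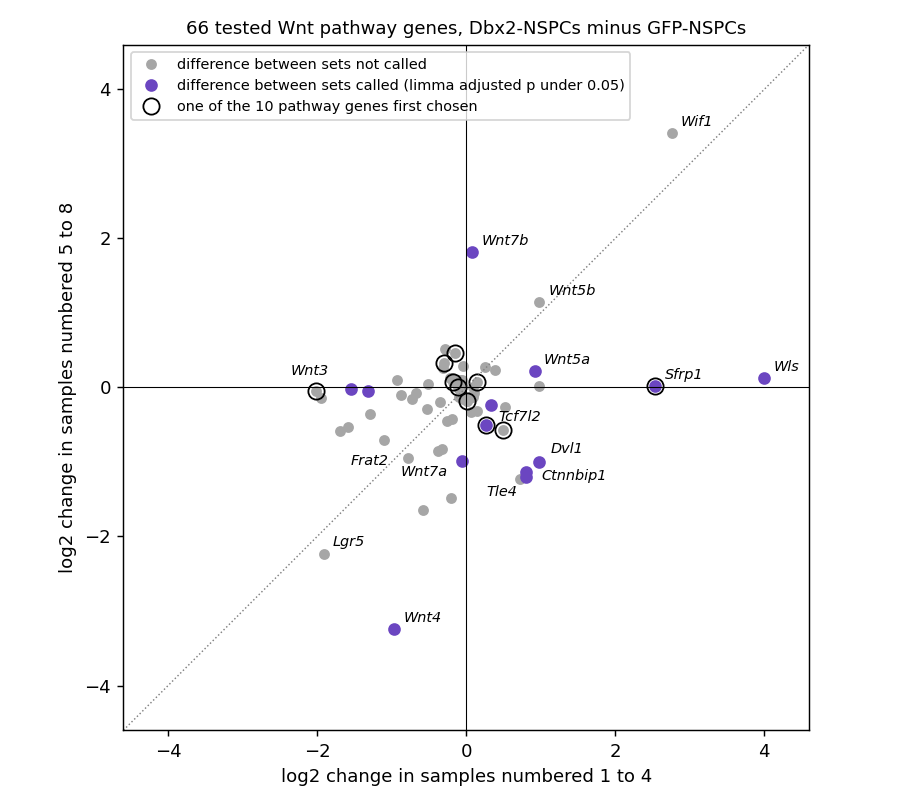
Log2 change (*Dbx2*-NSPCs minus *GFP*-NSPCs) in numbers 1 to 4 (horizontal axis) and 5 to 8 (vertical axis) for the 66 tested Wnt pathway genes, with genes whose effect differed between the sets in purple, the 10 genes as open circles and a dotted line for equal change. *Lgr5*, *Wif1* and *Wnt5b* lie near the dotted line, *Sfrp1* and *Wls* on the horizontal axis and *Tle4*, *Ctnnbip1*, *Dvl1* and *Tcf7l2* at lower right.

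**Figure D4:**
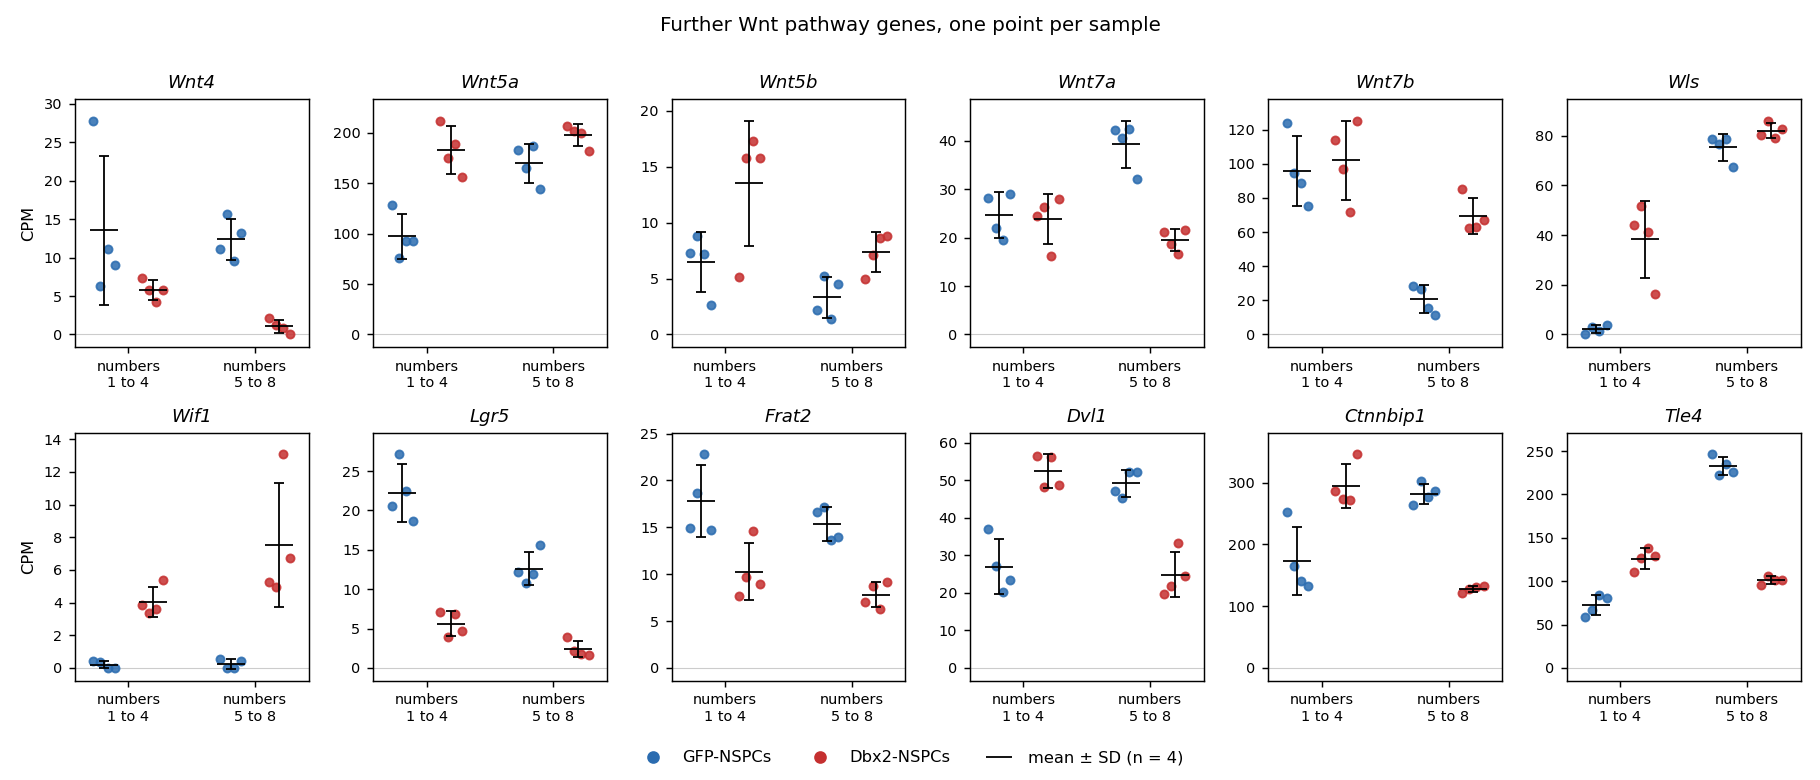
CPM of 12 further Wnt pathway genes, with 1 point per sample, *GFP*-NSPCs in blue, *Dbx2*-NSPCs in red and black bars for the mean ± SD of each group of 4. *Wif1* was higher and *Lgr5* lower in *Dbx2*-NSPCs of both sets, and *Tle4* was between 59.22 and 84.39 CPM in *GFP*-NSPCs 1 to 4 and between 222.99 and 246.58 CPM in *GFP*-NSPCs 5 to 8.

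Of 15 genes widely used as direct Wnt targets (some of them pathway genes as well, such as *Axin2*), 9 were tested. Over all samples 1 was higher, *Ccnd1*, which encodes cyclin D1, and 1 lower, *Lgr5*, or 2 of 9 beside 15.8% of all tested genes, and the median log2 change was -0.25, beside -0.02 over all tested genes. *Ccnd1* rose from 3378 ± 331 CPM with *GFP* to 4063 ± 170 CPM with *Dbx2* (SD, n = 8 each), a log2 change of 0.27 (standard error 0.07, limma adjusted p = 0.0169). In numbers 1 to 4 the target genes *Nkd1*, *Znrf3*, *Lgr5* and *Tnfrsf19* were lower and *Ccnd1* higher, or 5 of 9 beside 20.5% of tested genes. In numbers 5 to 8 only *Lgr5* of the 9 passed, beside 20.7%, and the difference between the sets passed for 0 of 9 with limma, beside 9.44%. For this difference 5 of the 9 had an unadjusted limma p under 0.05. The share of all tested genes at that level was not counted, so this count allows no comparison.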

How the data were processed

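RNA had been sequenced from 8 *GFP*-NSPC and 8 *Dbx2*-NSPC cultures with a 3' kit (QuantSeq, 100 ng of RNA, reads of 101 bases). The authors trimmed and aligned the reads to GRCm38 with Ensembl 96 annotation and deposited CPM for 30386 genes and 16 samples; 0 columns had no sample. The submitters' processing notes name FastQC 0.11.8, STAR 2.5.0a and edgeR 3.36. The counting tool and its strand setting are not given in the sources used here. 3' reads depend little on transcript length, and overlapping or antisense genes may share reads. The submitters call the 8 samples of a group biological replicates. Per the study they are repeat cultures, 4 for each of 2 lines per transgene. The main all-sample p-values measure the spread between the cultures of both sets. Those of set effects and their difference measure only the spread between the 4 cultures of each transgene and set. If the sets are the lines, these p-values hold no spread between lines.

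All values above 0 (100%, within 0.006 CPM) were multiples of what a single read is worth, so whole reads were recovered, and replicate libraries differed by more than sampling noise (chi-square per degree of freedom at least 2.36). Genes over 1 CPM in at least 4 samples were tested with limma 3.58.1 in R 4.3.3 on log2(CPM + 0.5), which understates changes of low genes, 2-sided, with an intensity trend and Benjamini-Hochberg adjustment at 0.05. The all-sample fit had 14 residual degrees of freedom. Set effects and their difference were contrasts in a fit of 4 groups (transgene by numbers 1 to 4 or 5 to 8, 12 degrees of freedom). The line, a covariate in the study's methods, is not in the labels. Same-numbered samples deviated together from their group means (correlation 0.152 to 0.303 in 8 of 8 pairs, mean 0.226). Samples of other numbers in the same set did so nearly as much (mean 0.199). Only 4 of 8 *GFP* samples were most like their own number, so this correlation does not single out the numbers. Less the group and set means the correlations were -0.01 to 0.12 and gave no pairing. A block for the numbers was kept as an alternative, chosen from the data and not the design. Alternatives were other pseudocounts (0.1, 2), filters, scalings, no trend, the block, the set as covariate, edgeR 4.0.16 and DESeq2 1.42.0 on recovered reads, each gene less its 20 nearest neighbours, and each sample left out (*GFP*-NSPC replicate 1 had stood apart in earlier results). Leaving samples out of the all-sample fit, and for set effects the 10 CPM filter, TMM, no trend, DESeq2 and neighbours, were added after seeing the data, as were the comparisons between sets within a transgene.

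The members and lists were chosen with earlier results of these data known. Beside the members, genes of the wider list were named if called and averaging 10 CPM or more in any group, at most 16 by smallest all-sample p and at most 8 by the difference between sets, with the 3 genes most like the member of smallest p. On simulated data with 12533 genes, each tool was tested before use. Positions came from GENCODE M21, sequences from RefSeq (GRCm38.p6).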

Additional observations from a re-analysis of the deposited data

Results flagged for a closer look

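Of the 21 genes given by name under the rules (the members and the other pathway genes), 10 had a transgene effect that differed between numbers 5 to 8 and numbers 1 to 4 by limma's test of the difference. Of these, 8 met the naming rule through this call, so the count is no result, and of the 10 members 2 passed, beside 9.44% of all tested genes. On the log2 scale these differences (5 to 8 less 1 to 4) were -0.76 for *Tcf7l2*, -2.52 for *Sfrp1*, -2.28 for *Wnt4*, -0.70 for *Wnt5a*, -0.93 for *Wnt7a*, 1.73 for *Wnt7b*, -3.87 for *Wls*, -1.98 for *Dvl1*, -1.95 for *Ctnnbip1* and -2.0 for *Tle4*. What separates the sets was not tested.

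Single samples stood far from the others of their group, by Dixon's ratio, in 3 of 83 groups of 4 and in 2 of 42 groups of 8, where chance gives about 1 in 20. *Lrp6* was at 41.19 CPM in *Dbx2*-NSPC replicate 8, with 55.98 to 59.02 CPM in the other 3 samples of numbers 5 to 8. *Wnt3* was at 0 CPM in *Dbx2*-NSPC replicate 2, with 0.32 to 0.36 CPM in the others of numbers 1 to 4, a gap of a single read. *Wnt5b* was at 5.14 CPM in *Dbx2*-NSPC replicate 1, with 15.78 to 17.26 CPM in the others of numbers 1 to 4. *Frat2* was at 14.65 CPM in *Dbx2*-NSPC replicate 3, with 6.32 to 9.71 CPM in the other 7. *Wnt4* was at 27.8 CPM in *GFP*-NSPC replicate 1, with 6.35 to 15.64 CPM in the other 7.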

How the results depend on the processing

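The calls of *Sfrp1* and *Wnt3* in numbers 1 to 4, of *Tcf7l2* in numbers 5 to 8 and of the set differences of *Sfrp1* and *Tcf7l2* held under every alternative that could be fitted for them. The number of members called over all samples (0) became 1 with the replicate block (*Sfrp1*), 1 with the set as covariate (*Sfrp1*) and 1 less the neighbours (*Ctnnb1*), and was 0 to 0 with samples left out. With the block and the covariate 2723 and 3034 of 12533 tested genes passed, and less the neighbours 1922 of 12506. In numbers 1 to 4 the count of 2 became 1 with the 10 CPM filter, which removes *Wnt3*, 3 with median-of-ratios scaling and 3 with DESeq2 (with *Tcf7l2*), and 4 less the neighbours (with *Ctnnb1* and *Tcf7l2*), and was 2 to 3 with samples left out. In numbers 5 to 8 the count of 1 became 2 with the replicate block and 2 with DESeq2 (with *Axin2*), and was 1 to 2 with samples left out. The difference between sets gave 2 to 3. For these set results the share of all tested genes under the alternatives was not counted. The 12 calls of the wider list became 4 with the 10 CPM filter and 21 with the set as covariate, and 6 to 11 with samples left out. The block gave 15. The totals over all tested genes for the filter, the covariate and the block are given above. Apart from the filters, the block and the omitted samples, the causes of these changes were not tested. Within either set same-numbered samples were not paired by the check.

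Changes of sign occurred only for values that did not pass the test. With a pseudocount of 0.1 *Lef1* and *Fzd1* were at 0.26 and -0.0098 over all samples, and with 2 *Wnt3* was at 0.0021 in numbers 5 to 8. Less the neighbours, *Tcf7l1* was at -0.11 and *Tcf7l2* at 4.77e-05 over all samples, *Ctnnb1*, *Tcf7l1*, *Fzd3* and *Sfrp1* at -0.35, -0.29, -0.26 and -0.16 in numbers 5 to 8, and the set difference of *Fzd3* at -0.0069. edgeR and DESeq2 gave 0.063 and 0.048 for *Fzd1* in numbers 1 to 4 and 0.11 and 0.11 for *Wnt3* in numbers 5 to 8. With samples left out, *Lef1* ran from -0.20 to 0.20 and *Fzd1* from -0.10 to 0.32 over all samples, *Fzd1* from -0.63 to 0.34 and *Lrp6* from -0.060 to 0.10 in numbers 1 to 4, and in numbers 5 to 8 *Ctnnb1* from -0.0090 to 0.040, *Tcf7l1* from -0.060 to 0.22, *Fzd3* from -0.0012 to 0.14, *Sfrp1* from -0.14 to 0.19 and *Wnt3* from -0.35 to 0.29. The set difference of *Tcf7l1* ran from -0.21 to 0.075 and that of *Fzd1* from -0.016 to 0.96. Depth limits *Lef1* and *Wnt3*, which were at or near 3 reads in most samples.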

Other observations

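*Wnt3* had the smallest all-sample p of the 10 genes. Among the 8651 genes averaging 10 CPM or more, those whose log2(CPM + 0.5) followed it most closely over the 16 samples were *Cttnbp2* (Pearson r = 0.837), *Dtx3* (0.83) and *Usp29* (0.808). The 16 points share the transgene groups and the sets, and *Wnt3* was at or under 3 reads in 12 of them, so these values only describe the samples.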
